A study of Mus musculus with 9 samples.

Results

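Antibody genes were followed in regenerating mouse muscle through 10 genes out of the 54532 in the count table: the heavy chain constant genes Ighm, Igha, Ighg1, Ighg2b and Ighg2c, the light chain constant genes Igkc and Iglc2, and Jchain, Mzb1 and Cd79a, which serve antibody assembly or B cell signalling. They were chosen by name, and each was found in the table by its Ensembl identifier. The tibialis anterior muscle of C57/BL6J mice was injured with barium chloride, a chemical that kills muscle fibres and starts regeneration, and then received 3 intramuscular injections. Young PBS mice (4 months) and old PBS mice (24 months) received saline, and old rMETRNL mice (24 months) received recombinant METRNL, a secreted protein, so that injury and injection were common to all groups. RNA was sequenced in 9 libraries, 3 per group, numbered 1, 2 and 3 in young PBS and old rMETRNL and 2, 3 and 4 in old PBS. The dose is printed as 0.1 ug and as 0.1 ng. The paper describes whole muscle at day 8, whereas the labels describe a strained suspension of digested muscle cells and the series text gives day 4. No uninjured muscle was among the libraries. The labels do not say that the libraries of a group came from separate mice, so the p-values below measure the spread between libraries, which may be technical.

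An antibody is built from heavy and light chains. A B cell first makes the mu heavy chain of IgM, encoded by Ighm, and may later switch to a gamma chain of IgG or to the alpha chain of IgA. Nearly all mouse light chains are kappa, with the constant part encoded by Igkc, and the rest are lambda. Plasma cells, the end stage of the lineage, hold very large amounts of antibody mRNA and are normally sparse in skeletal muscle, so few cells can supply most of such reads. In RNA of a whole tissue, fewer cells of a type and less RNA per cell cannot be told apart.

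The libraries held 16238700 to 22522560 counts, and a count of 3, used as the floor, corresponded to 0.133 to 0.185 CPM, which gives counts relative to the total of the library, before the correction by TMM. The muscle genes Acta1, Ckm, Myh4, Ttn and Myh3 together reached 49040 to 88730 CPM in every library. All 3 old PBS libraries stood apart in holding transcripts of other organs. The neuronal gene Snap25 had 221, 125 and 406 counts in old PBS 2, 3 and 4 and 0 in all 6 other libraries, and the liver gene Alb had 956, 508 and 25 counts there against 0 to 3 elsewhere. The sum of 5 brain genes was 130, 50.2 and 144 CPM in old PBS 2, 3 and 4, against 3.34 to 4.38 in young PBS and 3.33 to 5.74 in old rMETRNL. The sum of 5 liver genes was 80.2, 29.6 and 7.71 CPM, against at most 0.483 CPM in any other library. Xist, which male cells hardly express, had 21, 21 and 8 counts in old PBS 2, 3 and 4 and 0 to 4 in the other libraries, while the Y-linked gene Ddx3y was at 91.8 to 151 CPM in old PBS and 101 to 124 CPM elsewhere. Since every old PBS library held these transcripts, no comparison with old PBS could be made without them, and their part in the differences described here was not tested.

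Ighm, on chromosome 12 (chr12:113418558-113422730, minus strand, GRCm38), was the antibody gene with the most counts in every library. It had 36.2, 34.7 and 25.9 CPM in young PBS 1, 2 and 3. In old PBS 2, 3 and 4 it had 94.95, 47.0 and 131 CPM, and in old rMETRNL 1, 2 and 3 it had 41.4, 33.2 and 31.6 CPM. Every old PBS library was above every library of the other groups, and old PBS 3 was the closest to them. The mean was 32.3 ± 5.56 CPM in young PBS, 90.8 ± 41.9 in old PBS and 35.4 ± 5.26 in old rMETRNL (SD, n = 3 in each). Igkc (chr6:70726435-70726966, plus strand), which encodes the kappa constant part shared by most antibodies whatever their class, followed the same order within old PBS. It had 7.94, 7.71 and 3.85 CPM in young PBS, 32.1, 19.5 and 49.998 CPM in old PBS 2, 3 and 4, and 3.22, 12.998 and 12.1 CPM in old rMETRNL 1, 2 and 3. Its means were 6.50 ± 2.30, 33.9 ± 15.3 and 9.43 ± 5.40 CPM (SD, n = 3 in each). Within old PBS the sum of the brain genes was likewise highest in old PBS 4 and lowest in old PBS 3, but not each gene was, as Slc1a2 had 30.3, 21.2 and 17.7 CPM in old PBS 2, 3 and 4. The sum of the liver genes ran in another order.

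**Figure D1:**
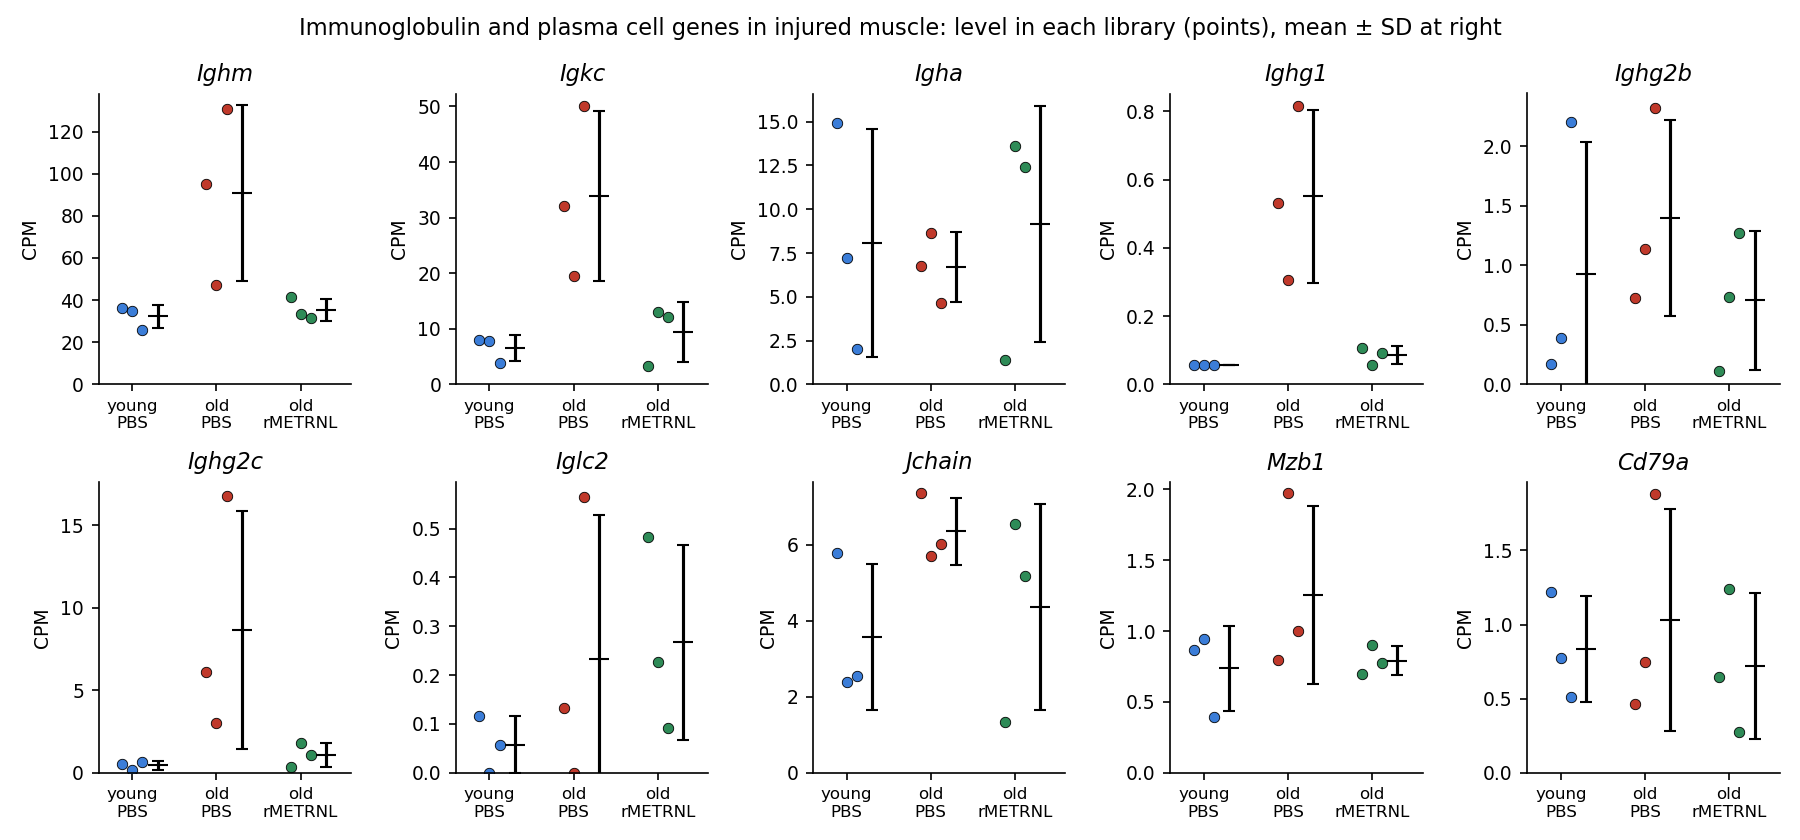
Level of the 10 genes in each library, in CPM (y axis, from 0, with a separate scale for each gene). Points are libraries in the order of their numbers, the line and bars at their right are the mean ± SD of 3 libraries, and bars that would pass below 0 are cut there. All 3 old PBS libraries lie above the other 6 for Ighm, Igkc, Ighg1 and Ighg2c, and the groups overlap for the other genes.

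Of the IgG heavy chains, Ighg2c (chr12:113285325-113288932, minus strand) had the highest level in old PBS. It encodes IgG2c, the form that C57BL/6 mice carry where many other strains have IgG2a. It had 9, 3 and 12 counts in young PBS (0.521, 0.166 and 0.679 CPM) and 92, 69 and 268 counts in old PBS 2, 3 and 4 (6.10, 3.03 and 16.8 CPM). In old rMETRNL it had 7, 32 and 23 counts (0.376, 1.81 and 1.05 CPM). The lowest old PBS library lay above the highest of the other 6, and old PBS 4 was far above the other old PBS libraries. Ighg1, the IgG1 heavy chain, was far rarer, with 1 count in each young PBS library, 8, 7 and 13 counts in old PBS and 2, 1 and 2 counts in old rMETRNL. The ratio of the old PBS to the young PBS counts, 28 against 3 and scaled to library size, was 8.93 with an exact 95% interval of 2.76 to 45.9. Against the 5 counts of old rMETRNL the ratio was 5.75 (2.19 to 19.1). Both intervals cover counting error only. Ighg2b, the IgG2b heavy chain, did not separate the groups. It had 3, 7 and 39 counts in young PBS, 11, 26 and 37 in old PBS and 2, 13 and 28 in old rMETRNL. In CPM its highest libraries were old PBS 4 (2.32) and young PBS 3 (2.21). Ighg3, which encodes IgG3, had 0, 0 and 1 count in young PBS, 13, 7 and 0 in old PBS and 0, 0 and 6 in old rMETRNL.

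The IgG genes are close copies, and the hinge exons are shown because they are among the parts that tell the classes apart. The hinge is the flexible stretch between the arms and the stem of the antibody, and its cysteines link the heavy chains. The sequences below are the hinge exons of the GENCODE M21 annotation (GRCm38, minus strand of chromosome 12), 5′ to 3′, with the in-frame cysteine codons in capitals. Ighg1 has 4 such codons in 39 bases (chr12:113329844-113329882), Ighg2b has 4 in 66 bases (chr12:113307261-113307326) and Ighg2c has 3 in 63 bases (chr12:113288263-113288325). 
Ighg1 hinge: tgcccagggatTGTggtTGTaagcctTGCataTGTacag
Ighg2b hinge: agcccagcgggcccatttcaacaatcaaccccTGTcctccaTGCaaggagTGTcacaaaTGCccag
Ighg2c hinge: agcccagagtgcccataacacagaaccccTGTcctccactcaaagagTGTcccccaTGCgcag
The Ighg2b and Ighg2c hinges were identical at 77.3% of aligned positions, and the Ighg1 hinge at 43.9% and 41.3% with them. Over whole transcripts, 5.49% of the 50-base stretches of Ighg2c were also present in Ighg2b, and 4.15% of those of Ighg2b were present in Ighg2c or another IgG gene. Ighm, Igkc and Igha shared no 50-base stretch with any other gene.

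Igha (chr12:113254830-113260236, minus strand), the heavy chain of IgA, the antibody of mucosal surfaces, did not separate the groups. It had 14.9, 7.21 and 2.04 CPM in young PBS, 6.76, 8.64 and 4.64 CPM in old PBS and 1.40, 13.6 and 12.4 CPM in old rMETRNL. Libraries of the same group differed more than the group means, which were 8.07 ± 6.50, 6.68 ± 2.002 and 9.15 ± 6.74 CPM (SD, n = 3 in each). Jchain encodes the small protein that joins IgM into pentamers and IgA into dimers. Its levels were 5.79, 2.39 and 2.54 CPM in young PBS, 7.36, 5.70 and 6.01 CPM in old PBS and 1.34, 6.56 and 5.19 CPM in old rMETRNL. Old rMETRNL 1 was lowest for both Igha and Jchain, and also for Igkc, while its Ighm was the highest of its group. In young PBS, the library highest for Igha was likewise the highest for Jchain.

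The other members were low. Mzb1, an endoplasmic reticulum protein that helps B and plasma cells assemble and secrete IgM, had 7 to 17 counts in young PBS, 12 to 45 in old PBS and 13 to 17 in old rMETRNL. A share of 53.5% of its 50-base stretches also lies in SPATA24, an overlapping gene model of the annotation on the same strand, so its counts are uncertain. Cd79a, the alpha chain of the signalling pair that carries the B cell receptor, had 21, 14 and 9 counts in young PBS, 7, 17 and 30 in old PBS and 12, 22 and 6 in old rMETRNL. The groups overlapped for both genes. Iglc2, a lambda constant gene, had 2, 0 and 1 counts in young PBS, 2, 0 and 9 in old PBS and 9, 4 and 2 in old rMETRNL, at or under the floor in 6 of the 9 libraries. The ratio of old PBS to young PBS counts for Iglc2 was 3.51, with an exact 95% interval of 0.927 to 19.6.

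Per length of transcript, the order of the genes differed between groups. In FPKM, counts scaled to library size and exon length, Ighm was at 17.1 ± 2.22 and Igkc at 12.1 ± 3.89 in young PBS, whereas in old PBS Ighm was at 44.4 ± 14.4 and Igkc at 58.9 ± 17.9 (SD, n = 3 in each). In old rMETRNL these were 19.5 ± 3.52 and 18.2 ± 10.4. In each group the difference between the mean levels of both genes was below the sum of their SDs, but both were measured in the same libraries. Within libraries, Igkc was above Ighm in every old PBS library and below it in every young PBS library. In old rMETRNL the order differed between libraries. These orders carry no test. Below them came Ighg2c at 5.81 ± 4.15 FPKM in old PBS, then Igha at 2.52 ± 1.17 and Jchain at 2.44 ± 0.400, which did not differ beyond their spread. In young PBS, Igha came next at 2.95 ± 2.28 FPKM, followed by Jchain at 1.41 ± 0.688, and Ighg2c was at 0.348 ± 0.209. Mzb1, Cd79a and Ighg2b lay between 0.267 and 1.06 FPKM in all groups.

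The comparison of old PBS with young PBS asked how age alters antibody genes in injured muscle treated with saline. Of the 10 genes, 8 had enough counts for edgeR's quasi-likelihood test, and Ighg1 and Iglc2 did not. No member passed an adjusted p of 0.05 in edgeR, where 10 of 15560 genes did (0.0643%). At an unadjusted p under 0.05, 3 of the 8 were higher in old PBS, against 5.91% of all genes in either direction. These were Ighm, Igkc and Ighg2c. Ighg2c was 18.7-fold higher, a log2 fold change of 4.23 ± 0.74 (SE, edgeR adjusted p = 0.0961). Igkc was 5.23-fold higher (log2 2.39 ± 0.39, edgeR adjusted p = 0.0856), and Ighm was 2.83-fold higher (log2 1.502 ± 0.34, edgeR adjusted p = 0.225). By p-value they ranked 57, 41 and 138 among the 15560 genes. DESeq2, run on the same genes, called these 3 and no other member, with adjusted p of 1.42e-07 for Ighg2c, 1.08e-06 for Igkc and 0.00361 for Ighm, where it called 1.29% of all genes. With single libraries left out, edgeR called these 3 genes only without old PBS 3, the old PBS library with the least of each, so that the gap widened by that choice. The adjusted p was then 0.0105, 0.00910 and 0.00728, and with other libraries left out it reached 0.396, 0.415 and 0.743. Without old PBS 4, the log2 fold change of Ighg2c was 3.31.

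The other 5 tested members had an unadjusted p over 0.05. The log2 difference was 0.84 ± 0.37 for Jchain (edgeR adjusted p = 0.849), 0.79 ± 0.52 for Mzb1, 0.59 ± 0.84 for Ighg2b, 0.30 ± 0.60 for Cd79a and -0.25 ± 0.58 for Igha. The median log2 difference of the 8 was 0.82, against 0.014 over all genes tested. Every old PBS library lay above every young PBS library for 3 of the 8, as it did for 5.06% of all genes tested, and also for Ighg1, which was too low for the test.

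The comparison of old rMETRNL with old PBS asked what the injected protein altered in old muscle. No member passed an adjusted p of 0.05 in edgeR, where 0.108% of 15682 genes did, and 3 of 8 had an unadjusted p under 0.05, against 8.07% of all genes in either direction. Ighg2c was 8.06-fold lower with rMETRNL (log2 -3.01 ± 0.70, edgeR adjusted p = 0.190). Igkc was 3.62-fold lower (log2 -1.86 ± 0.50, edgeR adjusted p = 0.303) and Ighm 2.59-fold lower (log2 -1.37 ± 0.33, edgeR adjusted p = 0.216). DESeq2 called these 3 members, with adjusted p of 0.000401, 0.00981 and 0.00723, where it called 1.7% of all genes. Of the 6 fits with a library left out, edgeR called them only without old PBS 3, again the lowest of old PBS, with adjusted p of 0.00673, 0.0171 and 0.00172, and the adjusted p otherwise reached 0.506, 0.737 and 0.686. Without old PBS 4, the log2 fold change of Ighg2c was -2.10. The log2 differences of the others were -0.97 ± 0.72 for Ighg2b, -0.70 ± 0.46 for Mzb1, -0.56 ± 0.47 for Jchain, -0.54 ± 0.68 for Cd79a and 0.43 ± 0.64 for Igha. The median of the 8 was -0.83, against -0.0056 over all genes. Every old rMETRNL library lay below every old PBS library for 3 of the 8 tested members, as it did for 5.38% of all genes, and for Ighg1. This comparison and the one with young PBS share the old PBS libraries, so they are not independent of each other.

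**Figure D2:**
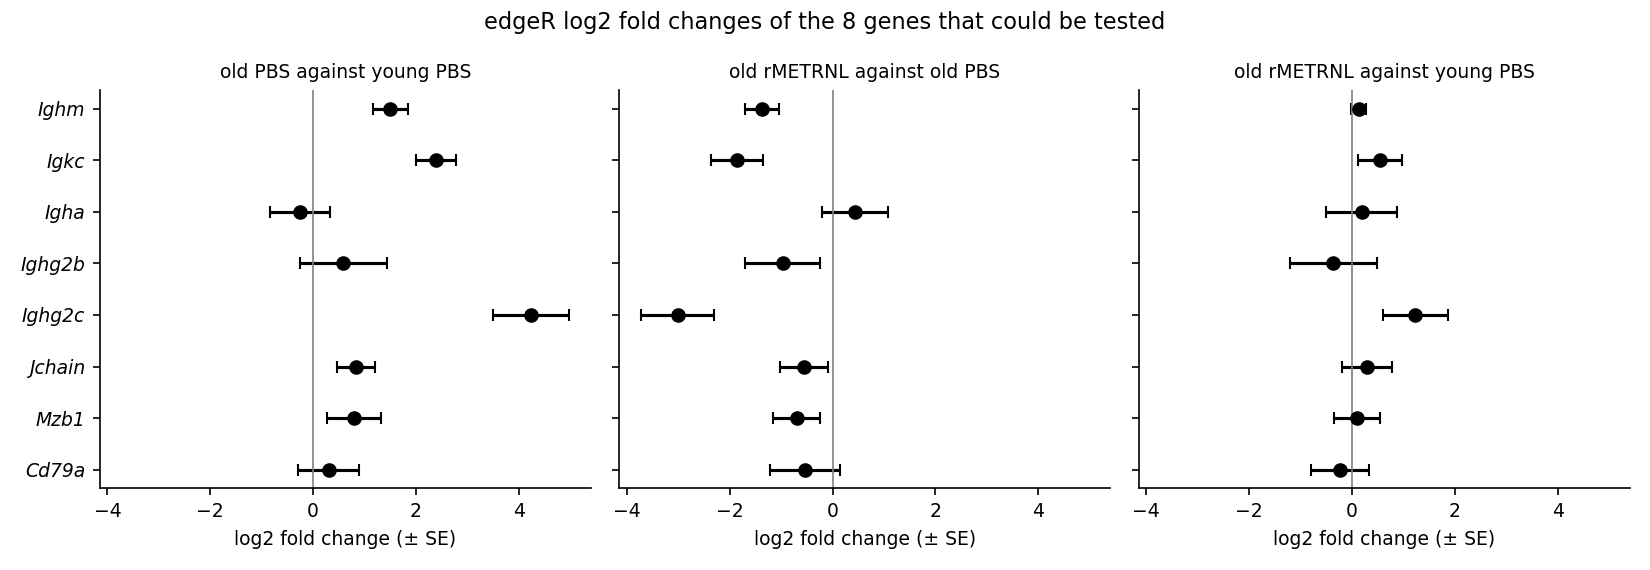
Log2 fold change of the 8 tested genes in each pair of groups, from edgeR (x axis; points are estimates, bars ± 1 SE, and the grey line marks no difference). Ighg2c, Igkc and Ighm lie farthest from 0 in both comparisons with old PBS, to the right against young PBS (4.23, 2.39 and 1.502) and to the left for old rMETRNL against old PBS (-3.01, -1.86 and -1.37).

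Old rMETRNL and young PBS overlapped for all 10 genes. No member passed either edgeR threshold, where edgeR called 0% of 15396 genes at an adjusted p under 0.05 and 2.41% at an unadjusted p under 0.05, and DESeq2 called 0%. Ighg2c was 2.34-fold higher in old rMETRNL (log2 1.23 ± 0.63, edgeR adjusted p = 0.9996), with 2 of the 3 libraries above all of young PBS. The log2 difference was 0.54 ± 0.43 for Igkc and 0.13 ± 0.15 for Ighm. The standard errors reached 0.85, for Ighg2b. When both old groups were set against young PBS in a fit of all 9 libraries, no member passed an adjusted p of 0.05 in edgeR, where 0.0062% of 16124 genes did. Ighg2c (log2 2.73 ± 0.71), Igkc (1.46 ± 0.45) and Ighm (0.82 ± 0.27) had an unadjusted p under 0.05, against 2.6% of all genes. DESeq2 called Ighg2c alone among the members (adjusted p = 0.0275), where it called 0.0745% of all genes.

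The mix of antibody classes was compared within each library, as the percent of heavy chain constant counts per kilobase of exon. Ighm made up most of it in every library, 80.6 ± 5.598% in young PBS, 81.9 ± 3.66% in old PBS and 78.0 ± 14.1% in old rMETRNL (SD, n = 3 in each), so the groups did not differ beyond their spread in the share of IgM. Ighg2c made up 1.52, 0.565 and 3.16% in young PBS, 7.85, 7.23 and 14.8% in old PBS and 1.22, 5.30 and 3.37% in old rMETRNL. Its share in old PBS was above that in all other libraries. All IgG genes together made up 9.25 to 16.1% in old PBS, against 1.32 to 8.51% in young PBS and 1.57 to 6.45% in old rMETRNL. As a share of counts without the correction for length, the IgG genes overlapped between old PBS (7.44, 7.80 and 12.7%) and young PBS, where young PBS 3 reached 9.498%. Igha made up 21.7, 12.2 and 4.71% in young PBS, 4.33, 10.3 and 2.03% in old PBS and 2.25, 19.8 and 19.9% in old rMETRNL. Its share varied about as much within groups as between them. These shares carry no test, and the rarer classes rest on few counts.

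**Figure D3:**
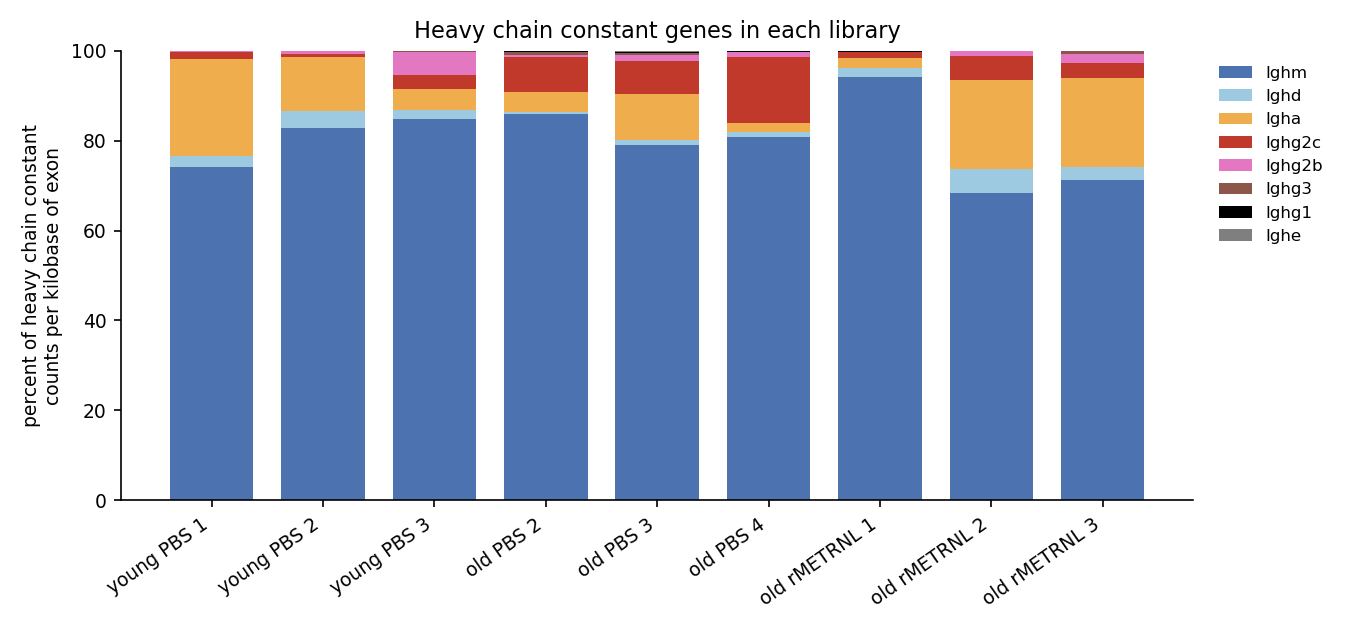
Share of each heavy chain constant gene in each library, as the percent of heavy chain constant counts per kilobase of exon (y axis, 0 to 100). Ighm fills 68.4 to 94.2% of every bar, and the Ighg2c part is larger in the 3 old PBS libraries (7.23 to 14.8%) than in the other 6 (0.565 to 5.30%).

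Light chain counts also weighed more in old PBS. The ratio of light to heavy constant counts was 0.179, 0.181 and 0.134 in young PBS, 0.304, 0.329 and 0.337 in old PBS and 0.0898, 0.265 and 0.277 in old rMETRNL. All old PBS libraries were above the other 6 in this ratio, and 2 of the 3 old rMETRNL libraries were above all of young PBS. Igkc supplied 81.4 to 96.2% of light chain constant counts per kilobase over the 9 libraries. Its share overlapped between the groups, and the remainder was lambda, mostly Iglc1 in old PBS.

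Variable segments were not members, and they were read because an antibody mRNA carries a V segment beside its constant part. Each B cell joins a variable (V) segment to joining segments, and its descendants keep that choice. The table holds 382 variable, diversity and joining segments, of which 142 had any count. The segments together had 113, 73 and 61 counts in young PBS, 343, 340 and 415 in old PBS and 53, 181 and 157 in old rMETRNL. Segments with more than 3 counts numbered 9, 4 and 4 in young PBS, 22, 24 and 20 in old PBS and 5, 21 and 15 in old rMETRNL. The number of different segments overlapped between the groups once the counts were made equal. Drawn down to 53 counts, a library was expected to hold 21.3 to 25.3 segments with any count in young PBS, 21.6 to 27.7 in old PBS and 19 to 27.4 in old rMETRNL.

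Each old PBS library had its own leading segment, and all of these were kappa V segments. In old PBS 2 it was Igkv6-20, with 84 of 343 segment counts (24.5%, 95% Wilson interval 20.2 to 29.3), and it had 5 and 1 counts in the other old PBS libraries and 0 in young PBS and old rMETRNL. In old PBS 3 it was Igkv4-63, with 71 of 340 counts (20.9%, 16.9 to 25.5), against 3 and 2 counts in the other old PBS libraries and 0 elsewhere. In old PBS 4 it was Igkv4-55, with 102 of 415 counts (24.6%, 20.7 to 28.9), against 0 and 9 counts in the other old PBS libraries and at most 1 elsewhere. None of the 3 had more than 9 counts outside the library it led. The intervals cover counting error only.

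The ends of these V exons are shown because they carry the germline part of the third complementarity-determining region, the loop at the centre of the antigen site, and because they show how far the leading segments differ. Igkv1-110, which led in young PBS 2, young PBS 3 and old rMETRNL 3, is given beside them. Each line holds the last 120 bases of the V exon in the GENCODE M21 annotation (GRCm38, chromosome 6), 5′ to 3′ in the direction of the gene, with capitals from the last in-frame cysteine codon to the end of the exon. The positions are chr6:70335841-70335960 (minus strand) for Igkv6-20, chr6:69377944-69378063 (minus) for Igkv4-63, chr6:69607275-69607394 (minus) for Igkv4-55 and chr6:68271148-68271267 (plus) for Igkv1-110. 
Igkv6-20: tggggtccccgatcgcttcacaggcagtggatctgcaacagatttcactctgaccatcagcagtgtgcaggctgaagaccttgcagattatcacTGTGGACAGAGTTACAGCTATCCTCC
Igkv4-63: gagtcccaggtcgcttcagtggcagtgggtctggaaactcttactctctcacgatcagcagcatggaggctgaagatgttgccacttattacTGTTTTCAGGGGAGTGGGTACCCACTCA
Igkv4-55: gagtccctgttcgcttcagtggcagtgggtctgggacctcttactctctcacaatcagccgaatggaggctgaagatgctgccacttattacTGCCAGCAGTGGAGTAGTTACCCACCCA
Igkv1-110: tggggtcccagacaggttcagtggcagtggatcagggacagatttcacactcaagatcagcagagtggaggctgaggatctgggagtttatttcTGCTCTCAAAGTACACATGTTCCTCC
Over whole V exons, Igkv4-55 and Igkv4-63 were identical at 85.8% of aligned positions, and Igkv6-20 matched them at 67.1% and 66.0%. Single segments are uncertain, since 64.1% of the 50-base stretches of Igkv6-20 also lie in Igkv6-29, 53.3% of those of Igkv4-55 lie in other segments of its family, and 25.1% of those of Igkv4-63 do. Reads from a mutated or closely related segment could therefore be counted on these. Igkv4-55 and Igkv4-63 were nonetheless counted apart, with 71 counts on Igkv4-63 beside 9 on Igkv4-55 in old PBS 3 and 2 beside 102 in old PBS 4.

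In young PBS the leading segments were Iglv1, with 19 of 113 counts in young PBS 1, and Igkv1-110, with 8 of 73 and 16 of 61 counts in young PBS 2 and 3. In old rMETRNL they were Ighv1-81 with 9 of 53 counts, Iglv1 with 20 of 181 and Igkv1-110 with 15 of 157. Igkv1-110 had counts in all 9 libraries, from 1 to 17, and Iglv1 had 1 to 28. Counts on these segments thus recurred in all groups. The single segments are uncertain here too, since 50.9% of the 50-base stretches of Igkv1-110 also lie in Igkv1-117 or Igkv1-122. For Iglv1, 22.2% of the stretches also lie in Iglv2. Of the 70 segments above 3 counts in any library, 45 (64.3%) were so in exactly 1 library and 5 in at least 5. The segments above 3 counts in any library of a group numbered 47 in old PBS, 11 in young PBS and 33 in old rMETRNL, and 32 were above it in old PBS alone. Such tallies rise with the segment counts of a library, which were highest in old PBS, and they were not corrected for them. Only Igkv10-96, Igkv12-46, Ighv1-53 and Iglv1 were above 3 counts in all 3 old PBS libraries. Of these, Igkv12-46 reached 7, 24 and 6 counts there, and no other library had a count on it.

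**Figure D4:**
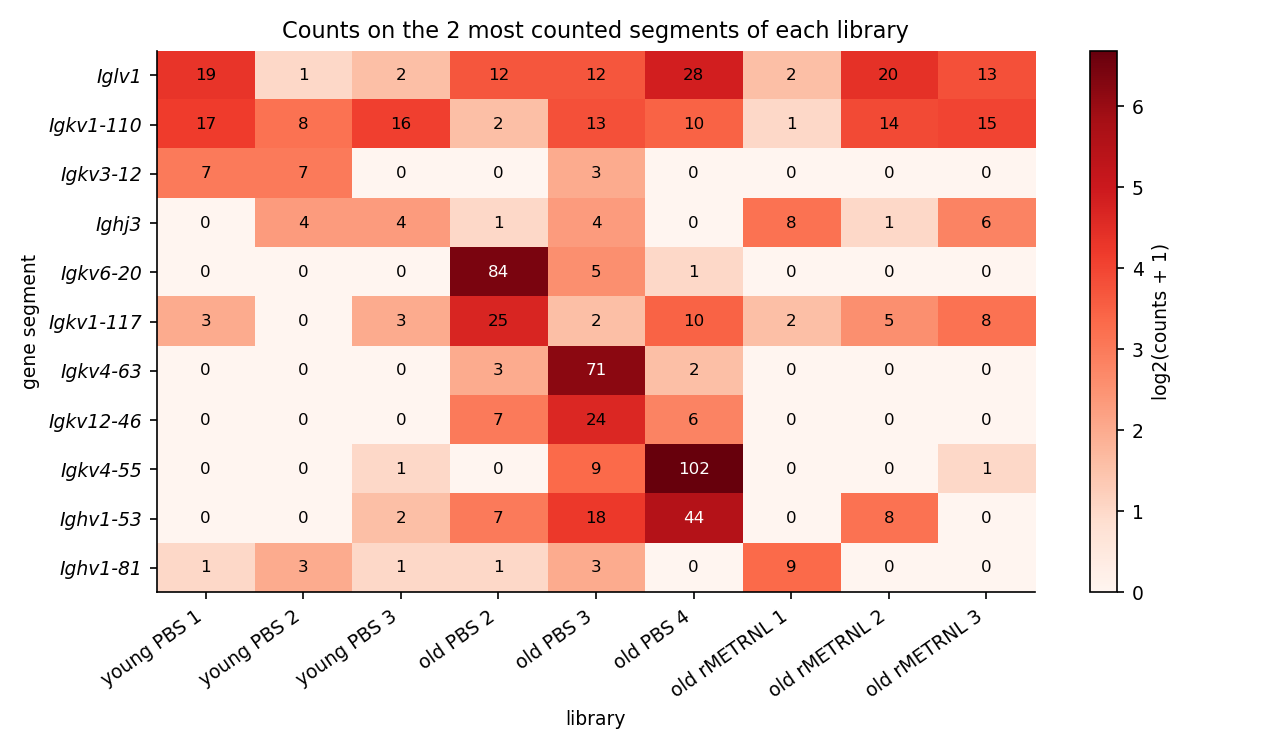
Counts on the 2 most counted gene segments of each library (numbers in the cells; colour is log2(counts + 1), darker for more). Igkv6-20, Igkv4-63 and Igkv4-55 each reach 71 to 102 counts in a single old PBS library, and Igkv1-110 and Iglv1 have counts in all 9 libraries.

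Most other genes of the B cell and plasma cell programme had no unadjusted p under 0.05 in either comparison with old PBS. The 15 B cell genes summed to 47.5 to 60.9 CPM in young PBS, 39.4 to 62.0 in old PBS and 54.2 to 63.1 in old rMETRNL. Most of this was Ebf1, Cd72 and Cd22, which other cells of muscle and blood also express. Ms4a1 (CD20), a surface protein of B cells, had 9, 4 and 4 counts in young PBS, 3, 6 and 9 in old PBS and 11, 17 and 18 in old rMETRNL, whose libraries were all above the other 6. Of the B cell genes, 6 could be tested in old PBS against young PBS, 3 of them were higher, none had an unadjusted p under 0.05 in edgeR and DESeq2 called none, with a median log2 difference of 0.14. Between old rMETRNL and old PBS, 9 were tested, 7 were higher with rMETRNL, none had an unadjusted p under 0.05 and DESeq2 called none, with a median of 0.20. Between old rMETRNL and young PBS, 3 of the 7 tested were higher at an unadjusted p under 0.05 (Ms4a1, Cd79b and Bank1), against 2.41% of all genes in either direction, and edgeR and DESeq2 called none after adjustment.

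The 15 plasma cell genes include Xbp1, which drives the secretory programme, and Sdc1, a surface proteoglycan of plasma cells, both of which many other cells express. They summed to 245 to 285 CPM in young PBS, 203 to 247 in old PBS and 252 to 283 in old rMETRNL. In old PBS against young PBS, 12 were tested and 3 of them were higher, with a median log2 difference of -0.17. A single gene of these, lower in old PBS, had an unadjusted p under 0.05, and edgeR and DESeq2 called none after adjustment. Xbp1 differed by 0.086 ± 0.16 and Sdc1 by -0.74 ± 0.38 on the log2 scale (SE). Between old rMETRNL and old PBS, 14 were tested, 10 were higher and 1 of these had an unadjusted p under 0.05, with none called after adjustment by either tool. Tnfrsf17, the BCMA receptor of plasma cells, had 2 to 15 counts in any library, and its highest counts were in young PBS 1 and old rMETRNL 1. The 5 precursor B cell genes, among them Rag1 and Vpreb1, had at most 8 counts each in any library.

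Signals and receptors around these cells were also read. Of 7 ligands for B and plasma cells, 4 could be tested. Cxcl13, the chemokine that draws B cells into follicles, had 11, 10 and 1 counts in young PBS, 13, 38 and 64 in old PBS and 23, 9 and 14 in old rMETRNL. It was 5.18-fold higher in old PBS than in young PBS (log2 2.37 ± 0.78, edgeR adjusted p = 0.619) and 2.75-fold lower with rMETRNL (edgeR adjusted p = 0.594). Tnfsf13b (BAFF), a survival factor of B cells, differed by 0.67 ± 0.31 and -0.59 ± 0.31 on the log2 scale in these comparisons. The related ligand Tnfsf13 went the other way in both, by -0.63 ± 0.68 and 0.28 ± 0.68, within its standard error. Cxcl12, which holds plasma cells in their niche and is abundant in muscle at 138 to 145 CPM in the group means, differed by 0.046 ± 0.24. Of 9 immunoglobulin receptors, 7 were tested in old PBS against young PBS, and none had an unadjusted p under 0.05 in edgeR or was called by DESeq2. Pigr, the receptor that carries IgA and IgM across epithelia, had 0 counts in all young PBS libraries, 19, 13 and 6 in old PBS and 0, 0 and 1 in old rMETRNL, and was too low for the test. The sum of the liver genes fell in the same order over old PBS 2, 3 and 4 (80.2, 29.6 and 7.71 CPM), unlike Ighm and Igkc. A link between Pigr and the liver transcripts was not tested.

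Other cell lists moved with the groups too. Of 7 T cell genes, 6 were higher in old PBS than in young PBS at an unadjusted p under 0.05, against 5.91% of all genes, with none called after adjustment by edgeR or DESeq2, and the median log2 difference was 1.39. Cd8a, a coreceptor of cytotoxic T cells, was 3.42-fold higher (log2 1.77 ± 0.50, edgeR adjusted p = 0.420). Cd4, the gene of this list with the highest level, was not higher (log2 -0.12 ± 0.35). Between old rMETRNL and old PBS, Cd4 differed by 0.58 ± 0.37. With rMETRNL, 4 of the 7 were lower than in old PBS at an unadjusted p under 0.05, against 8.07% of all genes, again with none called after adjustment by either tool. The sum of the T cell genes was 8.63 to 14.5 CPM in young PBS, 18.0 to 25.7 in old PBS and 12.9 to 22.6 in old rMETRNL. Macrophage genes summed to 1221 to 1478, 931 to 1213 and 1305 to 1606 CPM in the same order, lowest in old PBS. Of 4 lymph node stroma genes, Ccl19 and Ccl21a had 0 counts in every library, and Madcam1 and Glycam1 had at most 4 counts. The stretches that Ccl19 and Ccl21a share with other genes were not checked, so their 0 counts set no upper limit on their level. Red cell genes summed to 51.9 to 192 CPM in young PBS, 129 to 977 in old PBS and 61.4 to 843 in old rMETRNL. The highest blood values were in old PBS 4 and old rMETRNL 2, and in old rMETRNL 2 the level of Ighm was 33.2 CPM, within the range of young PBS, while Igkc (12.998 CPM) and Ighg2c (1.81 CPM) were above every young PBS library and the highest of their group. The part of T cells, blood and the brain and liver transcripts in the antibody gene differences was not tested.

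**Figure D5:**
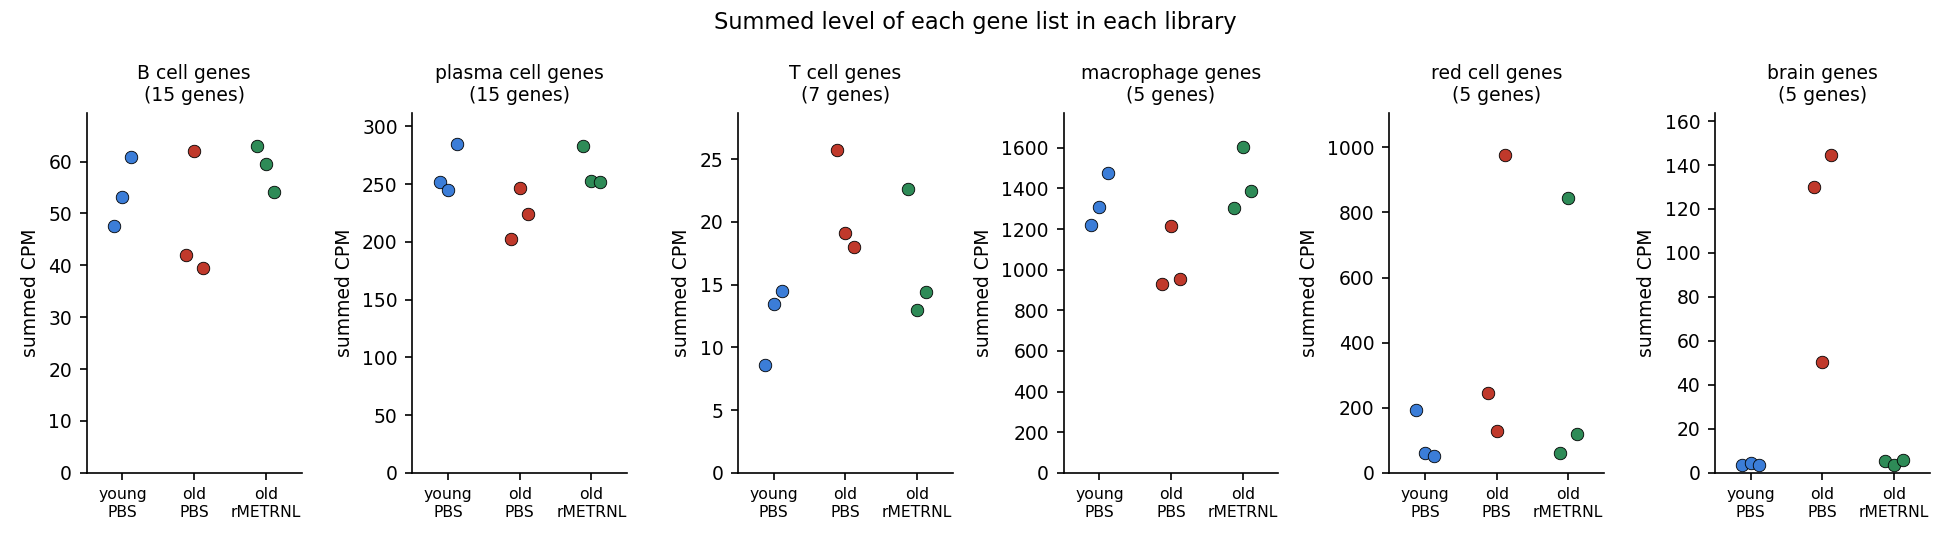
Summed level of 6 gene lists in each library, in CPM (y axis, from 0, with a separate scale for each list). Points are libraries. B cell genes overlap between the groups, T cell genes are higher in old PBS (18.0 to 25.7 CPM) than in young PBS (8.63 to 14.5 CPM), and brain genes are at 50.2 CPM or more in old PBS and at most 5.74 CPM in the other libraries.

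The genes whose levels were most like the antibody genes across the 9 libraries were found by the Pearson correlation of log2 CPM with the mean standardized level of the 8 tested members, among 16112 genes. They were Coq4, of coenzyme Q synthesis (r = 0.967), Frs3, an adaptor of fibroblast growth factor receptors (r = 0.947), Serpinb1c (r = 0.947), Supt3, of a transcription coactivator complex (r = 0.938), and Teddm2 (r = 0.936). Antibody genes and segments were not eligible. These are the highest of many correlations over 9 libraries that share groups and library sizes, and are given as a description. The mean standardized level of the members was highest in old PBS 4 (1.11) and lowest in old rMETRNL 1 (-1.07). Old rMETRNL 2, at 0.30, was closest to old PBS among the other libraries.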

How the data were processed

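The deposited table holds whole-number counts of reads per Ensembl gene, which the authors left unnormalized, with 1 column per library. Library preparation used NEBNext Ultra, and sequencing was paired-end, per the study's methods. The submitters' processing notes name STAR, featureCounts and the build mm9, and the paper's text names DESeq2. The versions, annotation and strand setting are not given in the sources used here. Of the 54532 identifiers, 54409 were matched to GENCODE M21 symbols. Exon lengths, coordinates and sequences are those of that annotation, on GRCm38.

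Groups were compared in pairs, on 6 libraries, with edgeR 4.0.16 (filterByExpr, TMM, glmQLFit and glmQLFTest, two-sided, Benjamini-Hochberg adjustment over all genes tested, threshold 0.05) in R 4.3.3. CPM used TMM factors of all 9 libraries, and FPKM used total counts and exon length. DESeq2 1.42.0 was run on the genes that edgeR kept. Standard errors came from the fold change and the F statistic. Simulated data for old PBS against young PBS, 15656 genes with 200 changed 4-fold, gave 183 recovered by edgeR with 9 false calls, and 178 by DESeq2 with 16. Every simulated gene had the same dispersion, 0.1, which sets the spread between libraries beyond counting error. These rates therefore do not describe genes of larger spread, such as Ighg2c in old PBS (8.64 ± 7.23 CPM).

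The members and lists were chosen with earlier results of these data known. Named are all members, up to 4 genes of highest mean level in each other list and its cell type markers, the 2 most counted segments of each library, and the 5 genes of most similar pattern. Other names, such as Pigr, Bank1, Snap25, Alb and Igkv10-96, were picked once their values had been seen. Alternatives covered the size factors, the filter on low counts, DESeq2, a block for the replicate number, fitting the 3 groups jointly, normalizing without antibody genes, and omitting single libraries.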

Additional observations from a re-analysis of the deposited data

How the results depend on the processing

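The number of members past an adjusted p of 0.05 depended on the setting, and the cause was not tested. For old PBS against young PBS it was 0 as reported, 3 without a filter on low counts, 3 with DESeq2, 1 in a fit of all 9 libraries (Ighg2c), and 0 to 3 with single libraries left out, 3 only without old PBS 3. For old rMETRNL against old PBS it was 3 without the filter, 3 with DESeq2 and 0 to 3 with single libraries left out, again 3 only without old PBS 3. For both old groups against young PBS it was 3 without the filter and 1 with DESeq2. DESeq2 size factors in edgeR, at least 10 counts in every library (4 or 5 members left) and leaving antibody genes out of the normalization gave 0, and for old rMETRNL against young PBS all gave 0. The direction of Ighm, Igkc and Ighg2c held in each alternative run for them (Ighg2c was too low for the filter of at least 10 counts), except that without 1 library Ighm in old rMETRNL against young PBS ranged from -0.0043 to 0.22.

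Same-numbered libraries did not deviate together (r = -0.316 to 0.412, and 0.023, -0.051 and -0.178 for the 3 pairs of young PBS and old rMETRNL), so the numbers were not taken as pairs. With the replicate number as a block, where only 4 libraries of a comparison with old PBS share a number, 1 member passed for old PBS against young PBS (Igkc). The block turned Igha to 0.94, Ighg2b to -0.23 and Cd79a to -0.053 there, Ighg2b to 0.075 and Cd79a to 0.017 for old rMETRNL against old PBS, and Igha to 0.11, Ighg2b to -0.26 and Cd79a to -0.18 for both old groups. It brought Ighg2c to 3.36 for old PBS against young PBS, and Ighg2c to -1.66 and Igkc to -1.02 for old rMETRNL against old PBS, and changed no other call. Without old PBS 4, Ighg2c was at 3.31 and -2.10 in these comparisons.

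Leaving out single libraries turned the low or variable genes. The log2 ranges were -0.72 to 0.54 for Igha and -0.43 to 0.67 for Cd79a in old PBS against young PBS, and -1.18 to 0.18 for Cd79a in old rMETRNL against old PBS. In old rMETRNL against young PBS they were -0.27 to 0.97 for Igha, -1.13 to 1.32 for Ighg2b, -0.12 to 0.82 for Jchain, -0.20 to 0.32 for Mzb1 and -0.88 to 0.18 for Cd79a. For both old groups they were -0.49 to 0.76 for Igha, -0.37 to 1.80 for Ighg2b and -0.33 to 0.41 for Cd79a. Segments above 10 counts averaged 1 per library in young PBS, 7 in old PBS and 1.67 in old rMETRNL, against 5.67, 22 and 13.7 above 3 counts. Leaving out each library in turn for the segments and the class shares was added after seeing the data. Depth limits Ighg1, Iglc2 and the single segments, which rest on few counts.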
